A study of Mus musculus with 18 samples.

Results

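The KMT2 family of histone lysine methyltransferases was followed through 18 RNA-seq libraries of mouse skeletal muscle. Its members are Kmt2a, Kmt2b, Kmt2c, Kmt2d and Kmt2e, found by matching the gene identifiers of the count tables to symbols, and they account for 5 of 46725 genes and 288 of 391858 exon bins. An exon bin is a stretch of exon delimited by annotated exon ends. The family was selected on the values of a single Kmt2c bin (034) and on the Kmt2d gene sum, so the levels of these members are given as a description without a test, and tests are given for Kmt2a, Kmt2b and Kmt2e.

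Libraries came from the gastrocnemius and quadriceps muscles of 3 mice in each of 3 groups, all on the FVB background and 20 weeks old. HSA-LR mice carry a human skeletal actin transgene with an expanded CTG repeat in its 3′ untranslated region. The transgene is driven in skeletal muscle, which limits these mice to the muscle side of myotonic dystrophy (DM1). The groups are WT mice without the transgene, HSA-LR mice without active oligonucleotide, and HSA-LR mice injected intravenously with Pip6a-PMO, a morpholino of CAG repeats joined to a cell-penetrating peptide. The last group is called treated. The labels give WT and HSA-LR mice as untreated and name saline as the other injection.

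Each library held 98916844 to 143135976 counts, from poly(A)-selected RNA. Levels are given as CPM, the counts of a gene or bin scaled to a common library total. Before the results, 2 points concern the libraries. WT mouse 2, labeled female, had 154.0 and 181.5 CPM of summed Y-linked genes in gastrocnemius and quadriceps, and WT mouse 3, labeled male, had 1.15 and 1.43, so their sex labels go against the data. Treated gastrocnemius mouse 3 stood apart in coverage, with a median log2 ratio of 5′ to 3′ coverage over 3971 genes of −0.98, against −0.59 to −0.40 in the other 17 libraries. Values without these mice are given below where they bear on a result. Summed CPM of 6 muscle fiber markers was 123910 to 182560 in every library, but single markers among them changed in opposite directions, as given below. Numbers of cells and RNA per cell cannot be told apart in whole muscle.

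Kmt2a, Kmt2b, Kmt2c and Kmt2d place methyl groups on lysine 4 of histone H3. They work in complexes around a shared core of Wdr5, Rbbp5, Ash2l and Dpy30. Kmt2a and Kmt2b bind menin and act mostly at promoters. Kmt2c and Kmt2d are very large proteins that mark enhancers together with the demethylase Kdm6a, and Kmt2d is needed for muscle differentiation. Kmt2e binds methylated histone H3 through its PHD finger and is thought to lack methyltransferase activity of its own.

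Kmt2d was the member with the greatest difference between HSA-LR and WT mice, in both muscles. In gastrocnemius its gene sum was 69.9, 74.8 and 62.8 CPM in the 3 WT mice, 241.5, 218.5 and 185.6 CPM in the 3 HSA-LR mice, and 176.8, 180.6 and 134.9 CPM in the 3 treated mice. In quadriceps it was 63.9, 63.6 and 59.2 CPM in WT, 201.8, 201.8 and 199.1 CPM in HSA-LR, and 167.5, 150.2 and 191.2 CPM in treated mice. In these CPM the 3 groups did not overlap in either muscle. Treated mice lay between the other groups but much nearer to HSA-LR mice. The log2 fold change (FC) of HSA-LR over WT, from the edgeR fit with TMM scaling, was 1.56 in gastrocnemius and 1.57 in quadriceps. Treated over WT it was 1.33 and 1.49, and treated over HSA-LR it was −0.23 and −0.08. The quadriceps value of treated over HSA-LR was 0.02 without treated mouse 2. The CPM above do not include TMM factors, and with them treated and HSA-LR mice overlap in both muscles. The factors were 0.936 for treated mouse 2 and 1.04 for HSA-LR mouse 3 in gastrocnemius. In quadriceps they were 0.912 for treated mouse 3 and 0.9945 for HSA-LR mouse 3. Without WT mouse 2 or WT mouse 3 the HSA-LR over WT value was 1.61 or 1.49 in gastrocnemius and 1.60 or 1.53 in quadriceps.

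**Figure D1:**
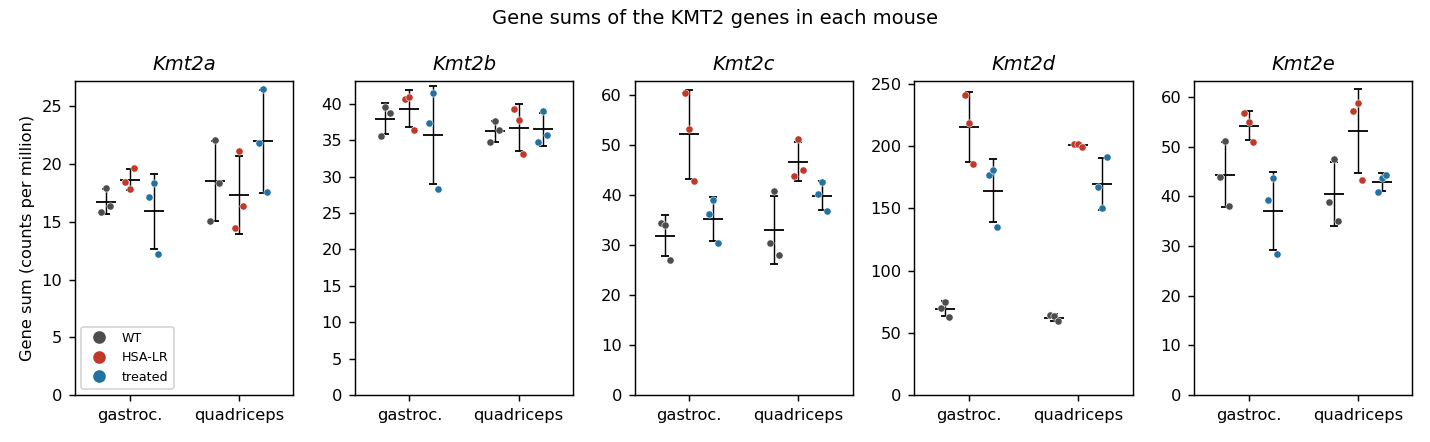
Gene sums of the 5 KMT2 genes (CPM, y axis from 0) in each mouse of the 3 groups, by muscle on the x axis, with each dot 1 mouse and the bars the mean ± SD of 3 mice. Kmt2d stands at 59.2 to 74.8 CPM in WT mice and at 185.6 to 241.5 CPM in HSA-LR mice, and the HSA-LR and WT dots of Kmt2a, Kmt2b and Kmt2e overlap in both muscles.

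Kmt2c differed less at the gene level. In gastrocnemius its gene sum was 34.3, 33.99 and 27.0 CPM in WT, 60.4, 53.2 and 42.7 CPM in HSA-LR, and 36.1, 39.0 and 30.3 CPM in treated mice. In quadriceps it was 30.3, 40.7 and 27.9 CPM in WT, 43.8, 51.1 and 44.9 CPM in HSA-LR, and 40.1, 42.5 and 36.7 CPM in treated mice. In CPM without TMM factors HSA-LR mice lay above WT mice without overlap in both muscles, and treated mice overlapped WT mice. In quadriceps the TMM factor was 1.093 for HSA-LR mouse 1 and 0.9606 for WT mouse 2. Scaling by these factors puts HSA-LR mouse 1 below WT mouse 2, so the quadriceps groups then overlap. The log2 FC of HSA-LR over WT was 0.63 in gastrocnemius and 0.38 in quadriceps. The quadriceps value was 0.58 without WT mouse 2, whose level of 40.7 CPM was the highest of the WT mice. When each gene was counted by its largest bin alone, the bin with the most counts, the Kmt2c values were −0.08 and −0.17, of opposite sign.

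The 3 members that were not used to choose the family did not pass the threshold of an adjusted P of 0.1. For HSA-LR over WT, 0 of 3 were called in gastrocnemius, where 15.5% of all genes tested were called, and 0 of 3 in quadriceps, where 20.3% were called. For treated over HSA-LR, 0 of 3 were called in either muscle, with 10% and 13.8% of all genes called. For treated over WT, 0 of 3 were called, with 1.04% and 1.41% of all genes called. By the quasi-likelihood test of edgeR, adjusted over all genes by the Benjamini-Hochberg method, the lowest adjusted P among these 18 values was 0.138, and 2 of them had an unadjusted P under 0.05.

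Those 2 values belong to Kmt2a and Kmt2e. Kmt2a, the founding member of the family, had 14.5, 21.1 and 16.4 CPM in HSA-LR and 21.9, 26.5 and 17.6 CPM in treated quadriceps, a log2 FC of 0.50 ± 0.19 (SE; edgeR, adjusted P = 0.138). It passed the threshold with DESeq2 (0.50, adjusted P = 0.0722), with the replicate block in edgeR (0.50, adjusted P = 0.0628) and with the largest bin in edgeR (0.30, adjusted P = 0.0508). Its WT quadriceps had 15.1, 22.1 and 18.4 CPM, so the groups overlapped. Kmt2e had 56.7, 55.0 and 51.0 CPM in HSA-LR and 39.3, 43.6 and 28.4 CPM in treated gastrocnemius, a log2 FC of −0.39 ± 0.15 (SE; edgeR, adjusted P = 0.159). The groups did not overlap, and the value without treated mouse 3 was −0.27, within the range of −0.53 to −0.27 over the 9 fits that left out 1 mouse. Kmt2e in WT gastrocnemius had 43.8, 51.1 and 38.0 CPM, and in quadriceps it had 38.8, 47.6 and 35.0 CPM in WT and 57.2, 58.7 and 43.4 CPM in HSA-LR, a log2 FC of 0.26 ± 0.13 (SE; edgeR, adjusted P = 0.236). Without WT mouse 2 this value was 0.41, with an adjusted P of 0.0589 in the same edgeR test, past the threshold.

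Kmt2b, which has its main known role at promoters, was the most even member. Its group means lay between 35.7 and 39.3 CPM, and its log2 FC of HSA-LR over WT was −0.03 ± 0.12 in gastrocnemius and −0.10 ± 0.08 in quadriceps (SE; edgeR, adjusted P = 0.917 and 0.437). Ratios of unscaled CPM had the opposite sign here, 0.05 and 0.02 on the log2 scale. Unscaled CPM moved the median gene as well, by −0.164 and −0.168 (log2) for treated over HSA-LR in gastrocnemius and quadriceps and by 0.125 for HSA-LR over WT in quadriceps, whereas in the TMM-scaled fits all 6 medians lay between −0.01 and 0.01.

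WT muscles differed little in this family. Of the 5 members, 0 were called between WT gastrocnemius and WT quadriceps, a contrast in which 0.297% of 16167 genes were called, and their log2 FC ran from −0.16 for Kmt2a to 0.14 for Kmt2d (edgeR, adjusted P from 0.839 to 0.951). The test of whether the HSA-LR change differed between muscles called 0 of 3 members and 0% of all genes, with 710 of 16167 genes at an unadjusted P under 0.05. Its log2 differences, gastrocnemius minus quadriceps, were 0.32 ± 0.24 for Kmt2a, 0.09 ± 0.14 for Kmt2b and −0.03 ± 0.21 for Kmt2e (SE). Both contrasts came from a single fit of all libraries without a mouse term, so these SE and P ignore that both muscles came from the same mice. With the mouse as a block, 0 members were called.

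Per kilobase of exon, averaged over the whole gene, the order of the members changed between WT and HSA-LR muscle. In WT gastrocnemius Kmt2e was first with 4.24 ± 0.628 CPM per kilobase (SD, n = 3), followed by Kmt2b with 3.96 ± 0.218 and Kmt2d with 3.48 ± 0.303. Kmt2c had 1.57 ± 0.203 and Kmt2a 1.005 ± 0.0647. Kmt2e and Kmt2b lay within 1 SD of each other. In HSA-LR gastrocnemius Kmt2d was first with 10.8 ± 1.41, above Kmt2e with 5.19 ± 0.28. The same genes headed the order in quadriceps, Kmt2e with 3.87 ± 0.615 in WT and Kmt2d with 10.1 ± 0.0783 in HSA-LR, and in WT quadriceps Kmt2e and Kmt2b, with 3.78 ± 0.15, again lay within 1 SD.

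The gene sums hide where along the transcript the counts were. Each gene was divided into 3 parts of equal exonic length, the 5′, middle and 3′ part. In WT muscle both Kmt2c and Kmt2d were read mostly at the 3′ end. The 3′ part held 93.7% ± 0.914 of the Kmt2c counts in WT gastrocnemius and 73.4% ± 2.41 of the Kmt2d counts (SD, n = 3). In HSA-LR gastrocnemius these shares were 63.5% ± 10.7 and 39.7% ± 1.5.

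For Kmt2d, the 5′ part had 4.17, 4.70 and 3.07 CPM in WT, 54.6, 46.1 and 41.7 CPM in HSA-LR and 29.7, 34.4 and 19.6 CPM in treated gastrocnemius. In quadriceps it had 3.41, 9.11 and 3.97 CPM in WT, 34.2, 51.3 and 45.8 CPM in HSA-LR and 41.2, 37.6 and 43.2 CPM in treated mice. The ratio of means, HSA-LR over WT, was thus 11.9 in gastrocnemius and 7.97 in quadriceps. All HSA-LR and treated mice lay far above all WT mice, and treated quadriceps overlapped HSA-LR quadriceps. WT quadriceps mouse 2 was the highest WT library here, and without it the quadriceps ratio was 11.9.

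The middle part of Kmt2d, which holds its longest coding bins, had 14.5 ± 2.36 CPM in WT, 82.6 ± 13.3 in HSA-LR and 65.3 ± 1.6 in treated gastrocnemius (SD, n = 3). In quadriceps these were 13.7 ± 1.9, 77.3 ± 4.14 and 59.7 ± 8.97 CPM. The ratio of HSA-LR to WT was 5.69 and 5.66, so both muscles gave nearly the same value. The 3′ part had 50.6 ± 2.89, 85.1 ± 8.86 and 70.9 ± 16.5 CPM in gastrocnemius and 43.1 ± 4.86, 79.8 ± 5.08 and 69.3 ± 8.92 CPM in quadriceps, a ratio of 1.68 and 1.85. The ratio of HSA-LR to WT therefore fell along Kmt2d from its 5′ to its 3′ end in both muscles. In CPM the means of HSA-LR and WT mice lay furthest apart in the middle part. The WT level itself rose from the 5′ to the 3′ part.

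In Kmt2c the middle part carried the difference. It had 1.37, 1.33 and 0.678 CPM in WT, 21.6, 15.8 and 8.16 CPM in HSA-LR and 5.15, 5.48 and 5.97 CPM in treated gastrocnemius. In quadriceps it had 0.834, 4.04 and 1.23 CPM in WT, 13.8, 13.5 and 14.7 CPM in HSA-LR and 6.09, 7.39 and 6.15 CPM in treated mice. The ratio of HSA-LR to WT was 13.5 and 6.88, and the 3 groups did not overlap in either muscle. The quadriceps ratio depends on WT mouse 2, with its 4.04 CPM, and was 13.5 without that mouse. Likewise, the ratio of treated to WT quadriceps was 3.21 with it and 6.33 without it. The 5′ part of Kmt2c had a ratio of 4.88 and 4.84. Its 3′ part, with 29.8 ± 3.6 CPM in WT and 32.5 ± 0.379 in HSA-LR gastrocnemius and 30.1 ± 5 and 28.4 ± 3.28 in quadriceps, overlapped between HSA-LR and WT mice, with a ratio of 1.09 and 0.944.

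**Figure D2:**
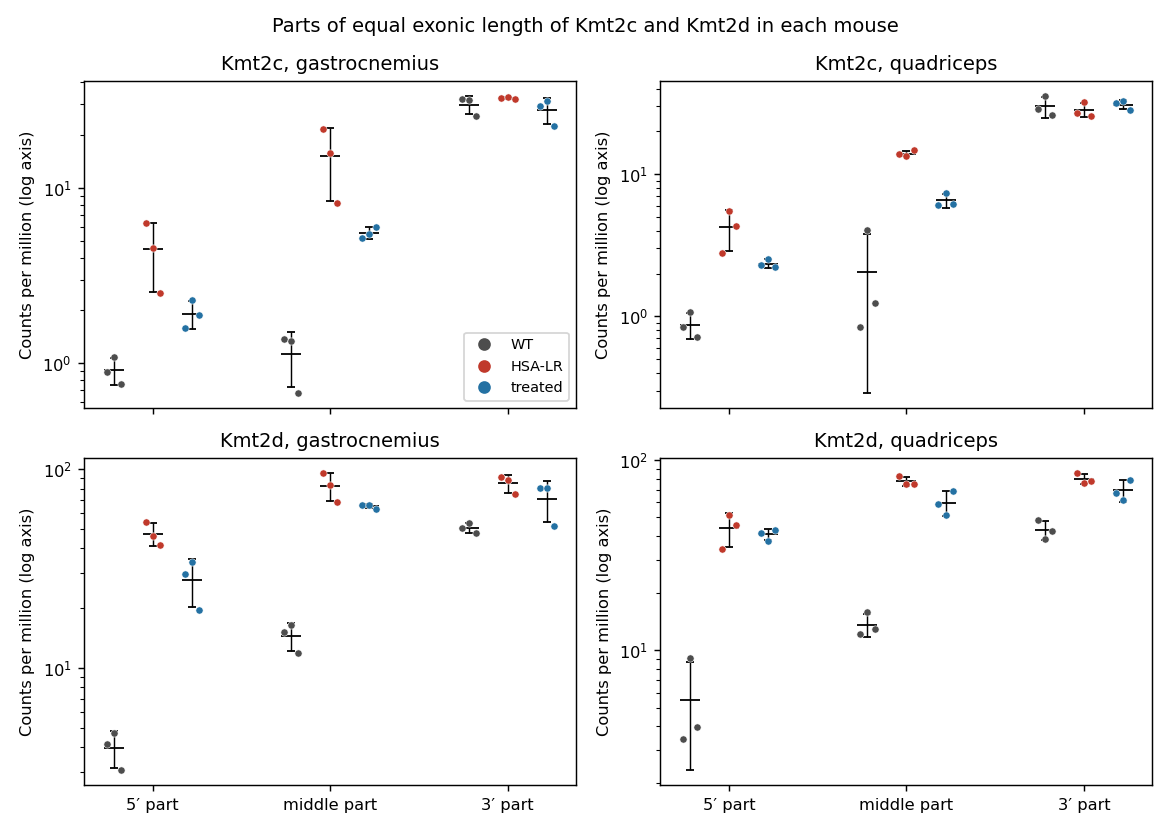
CPM of the 5′, middle and 3′ parts (x axis) of Kmt2c and Kmt2d on a log axis, by muscle, with each dot 1 mouse and the bars the mean ± SD of 3 mice. In the 3′ part of Kmt2c the WT and HSA-LR dots overlap, whereas in its middle part HSA-LR mice lie at 8.16 to 21.6 CPM and WT mice at 0.678 to 4.04 CPM.

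Kmt2c was also followed bin by bin. Of its bins with at least 5 counts on average over the 9 libraries of a muscle, 20 of 24 in the 5′ part and 22 of 22 in the middle part had every HSA-LR mouse above every WT mouse in CPM in gastrocnemius, where 22.7% of all such bins of the tables did. In quadriceps it was 20 of 24 and 17 of 22, where 19.1% of all such bins did. In the 3′ part of Kmt2c it was 7 of 24 bins in gastrocnemius and 0 of 24 in quadriceps. These counts restate the pattern the family was selected on, and a bin can pass the floor of 5 counts through the HSA-LR mice alone, so nothing is read from them.

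**Figure D3:**
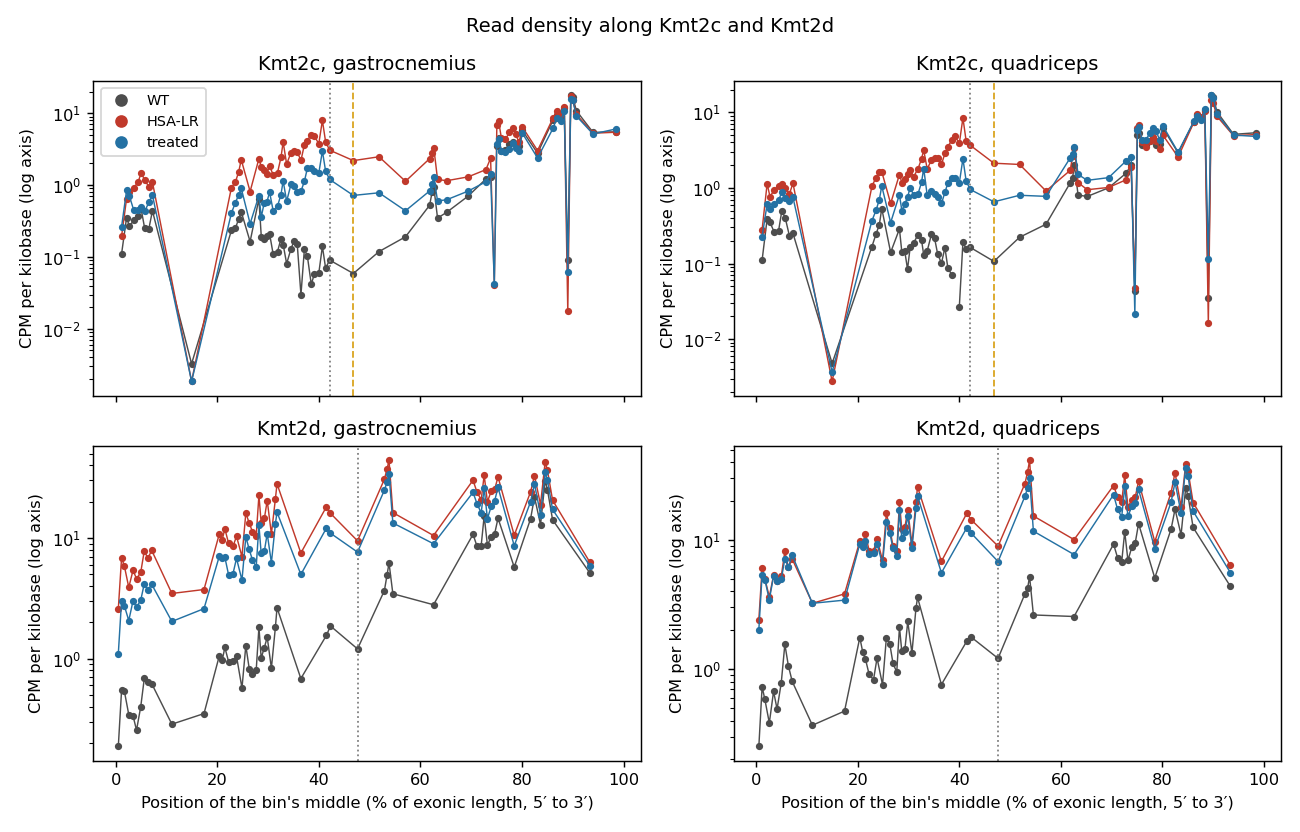
Mean CPM per kilobase (log axis) of each exon bin of at least 50 bases along Kmt2c and Kmt2d, against the position of the bin's middle in percent of exonic length, for WT, HSA-LR and treated mice, with bins at 0 left out. A dotted line marks the bin with the longest CAG run and a dashed line Kmt2c bin 034. The curves lie apart over the 5′ and middle parts and come together over the 3′ end of Kmt2c, and in Kmt2d they approach each other toward the 3′ end.

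Kmt2c bin 034 is a coding bin of 1757 bases at chr5:25313980-25315736 (GRCm38, minus strand), near the middle of the transcript. It held 19, 15 and 7 counts in WT, 705, 502 and 205 in HSA-LR and 160, 167 and 145 in treated gastrocnemius. In quadriceps it held 7, 40 and 19 counts in WT, 431, 407 and 421 in HSA-LR and 111, 134 and 178 in treated mice. Its share of the gene's counts was 0.315% ± 0.13 in WT, 7.09% ± 2.7 in HSA-LR and 3.64% ± 0.64 in treated gastrocnemius, and 0.539% ± 0.32, 8.1% ± 1.8 and 2.92% ± 0.69 in quadriceps (SD, n = 3). HSA-LR and treated mice lay above WT mice in each muscle, and treated mice lay below HSA-LR mice in quadriceps and overlapped 1 HSA-LR mouse in gastrocnemius. The log2 change of the bin relative to its gene, HSA-LR over WT, was 4.52 in gastrocnemius and 3.81 in quadriceps. With the 5′ to 3′ coverage ratio of each library as a covariate it was 4.62 and 3.85. Without WT mouse 2 or WT mouse 3 it was 4.51 or 4.27 in gastrocnemius and 4.36 or 3.81 in quadriceps.

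**Figure D4:**
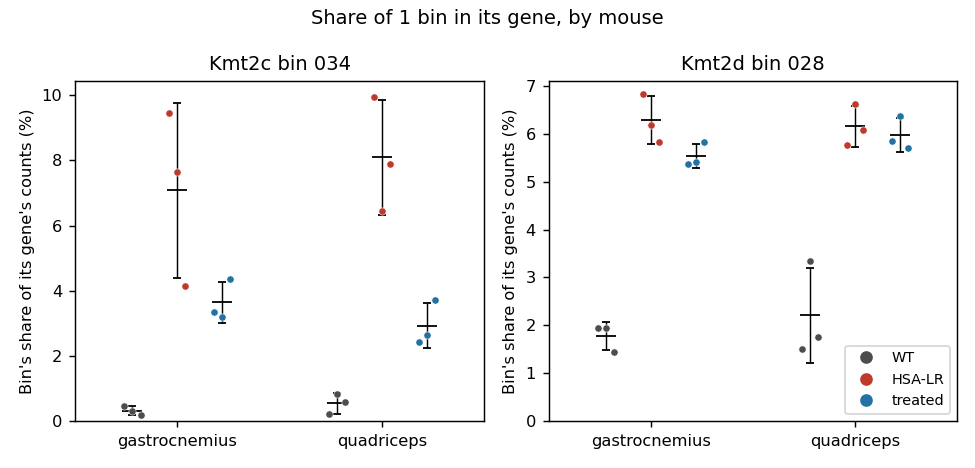
Share of the gene's counts (percent, y axis from 0) held by Kmt2c bin 034 and by Kmt2d bin 028 in each mouse of the 3 groups, by muscle, with bars for the mean ± SD of 3 mice. Bin 034 goes from below 1% of Kmt2c in every WT mouse to between 4.16% and 9.95% in HSA-LR mice, and bin 028 goes from 1.78% and 2.21% of Kmt2d on average in WT to 6.29% and 6.16% in HSA-LR mice.

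Bin 034 was 1 of a run of bins. Bin 032, a coding bin of 1820 bases just downstream, held 44, 70 and 26 counts in WT, 346, 238 and 166 in HSA-LR and 98, 137 and 69 in treated gastrocnemius. Bin 033, between these bins and named after its values were seen, held 2, 19 and 2 counts in WT, 56, 70 and 79 in HSA-LR and 29, 29 and 27 in treated quadriceps. Bins at the 3′ end had smaller shares in HSA-LR mice, such as bin 003 with 5.12% ± 0.11 in WT and 2.81% ± 0.31 in HSA-LR gastrocnemius, while their CPM overlapped between the groups. In quadriceps, among bins with at least 50 counts on average, those with the largest change of share after bin 034 were bins 004 and 014 of the 3′ part, at 3.67% ± 0.51 and 2.01% ± 0.32 in WT against 2.02% ± 0.2 and 1.15% ± 0.27 in HSA-LR mice.

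In Kmt2d, bin 058, a coding bin of 163 bases near the 5′ end, held 4, 7 and 6 counts in WT, 113, 85 and 74 in HSA-LR and 57, 86 and 25 in treated gastrocnemius. In quadriceps it held 6, 14 and 8, then 69, 115 and 88, then 92, 83 and 109 counts. Treated and HSA-LR mice overlapped in this bin in both muscles. Bins 041 and 039 of the 5′ part had CPM ratios of HSA-LR to WT of 16.1 and 15.05 in gastrocnemius, and bins 047 and 027 had 9.97 and 9.75 in quadriceps. The longest bins behaved alike. Bin 028, a coding bin of 1815 bases named after its values were seen, held 169, 201 and 130 counts in WT, 2035, 1673 and 1250 in HSA-LR and 1256, 1306 and 861 in treated gastrocnemius.

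The first 90 bases of the long bins that carry these differences are shown as reference sequence, 5′ to 3′ on the transcript strand, from GENCODE M21 (GRCm38). They are all coding. The Kmt2c stretch lies at chr5:25315647-25315736 and the Kmt2d stretches at chr15:98853616-98853705 and chr15:98864120-98864209, each on the minus strand.
Kmt2c bin 034: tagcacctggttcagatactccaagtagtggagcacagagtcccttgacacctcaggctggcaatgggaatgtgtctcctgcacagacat
Kmt2d bin 028: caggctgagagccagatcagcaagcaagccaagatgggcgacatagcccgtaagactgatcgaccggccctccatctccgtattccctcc
Kmt2d bin 053: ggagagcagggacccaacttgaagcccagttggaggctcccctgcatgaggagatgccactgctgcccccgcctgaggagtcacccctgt

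Because the transgene carries CTG repeats and the oligonucleotide CAG repeats, the longest uninterrupted runs of the triplets CTG and CAG were looked up on the sense strand of each member's annotated transcripts. Introns were not searched. Kmt2d and Kmt2c have the longest CAG runs of the family, both in coding sequence. The run of 16 CAG in Kmt2d lies in bin 025 at chr15:98849590-98849637, and 0.0513% of 15595 tested genes have a run as long. The run of 9 CAG in Kmt2c lies in bin 035 at chr5:25315777-25315803, next to bin 034, and 0.282% of tested genes have a run as long. Kmt2a has a run of 3, and Kmt2b and Kmt2e of 2. The runs are in capitals, with flanking bases in lower case.
Kmt2d CAG run: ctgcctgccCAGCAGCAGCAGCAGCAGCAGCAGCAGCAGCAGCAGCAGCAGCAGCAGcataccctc
Kmt2c CAG run: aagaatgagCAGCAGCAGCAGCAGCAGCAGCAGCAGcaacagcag
Kmt2a CAG run: agtgcccccCAGCAGCAGacctcctcc

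In Kmt2c and Kmt2d the longest CTG runs were shorter than the CAG runs. The longest CTG run of the family was of 6, in Kmt2c, in noncoding sequence of bin 074. Kmt2e has a CTG run of 5 in coding bin 044, longer than its CAG run. In Kmt2a and Kmt2b the longest runs of both triplets are equal in length. A run of 6 or more is present in 0.66% of tested genes. Kmt2d, the member with the greatest difference, has a longest CTG run of 3, as 18.2% of tested genes do or exceed. A run is a feature of the reference sequence, and its part in any level was not tested. The bin 025 around the Kmt2d run, named after its values were seen, held 299, 407 and 259 counts in WT, 2715, 2359 and 1759 in HSA-LR and 1933, 2022 and 1714 in treated gastrocnemius, and the higher HSA-LR counts lay on both sides of it.

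How far treatment brought these levels back was expressed as a return index, which is 0% where treated mice equal HSA-LR mice and 100% where they equal WT mice on the log2 scale of TMM-scaled means. For the Kmt2d gene sum it was 14.8% in gastrocnemius and 5.14% in quadriceps. By part it was 17.4%, 7.14% and 16.1% in gastrocnemius from 5′ to 3′, and −1.81%, 8.7% and 5.26% in quadriceps. Each of the 3 parts of Kmt2d thus stayed nearer to its HSA-LR than to its WT level. On unscaled CPM the gene-level values were 23.9% and 14.4%, and the quadriceps 5′ part had 3.6%.

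Kmt2c returned further on this index. Its middle part had 34.9% in gastrocnemius and 35.6% in quadriceps, and its 5′ part 47.2% and 32%. On the same TMM scale, treated mice still held 5.23 and 3.26 times the WT level in the middle part. The Kmt2c gene sum had 64.1% and 18.6%, and on unscaled CPM 79.8% and 45.5%, values that rest on a small difference between HSA-LR and WT mice. Over the fits that dropped 1 mouse, the quadriceps gene value ran from 10.03% (without HSA-LR mouse 2) to 29.5% (without HSA-LR mouse 1). Bin 034 relative to its gene had a log2 change of −1.03 for treated over HSA-LR gastrocnemius and −1.47 in quadriceps, and of 3.49 and 2.34 for treated over WT. The return was larger as a share of the distance in unscaled mean CPM, without the log2 scale. It was 68.6% and 62.3% in the middle part of Kmt2c and 71.6% and 55.9% in its 5′ part, in gastrocnemius and quadriceps. From 5′ to 3′ the parts of Kmt2d had 45%, 25.4% and 41.2% in gastrocnemius on that scale. In quadriceps they had 8.24%, 27.6% and 28.7%.

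Treated gastrocnemius mouse 3, the library with the lowest 5′ coverage, had the lowest Kmt2d gene sum and the lowest 5′ part of Kmt2d among treated mice, but the highest Kmt2c middle part. Without it the log2 FC of Kmt2d, treated over WT, was 1.42. Whether its coverage had a part in these levels was not tested. In gastrocnemius the 5′ to 3′ coverage ratio was also higher in HSA-LR mice (−0.46 to −0.45) than in WT mice (−0.58 to −0.52) without overlap, while in quadriceps the groups overlapped. Coverage was a covariate only in the test of bins relative to their gene, and its part in the levels along the genes was not tested.

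Set beside all other genes with an exonic length of at least 2000 bases and at least 30 counts on average in both end parts in WT and HSA-LR mice, Kmt2c and Kmt2d lay at the upper end. The log2 FC of the 5′ part minus that of the 3′ part, HSA-LR over WT, was 2.83 for Kmt2d and 2.16 for Kmt2c in gastrocnemius, and 2.11 and 2.36 in quadriceps. The median over 5831 other genes was 0.07 in gastrocnemius and over 5759 in quadriceps 0.03, and the 99th percentile was 1.13 and 0.80. In gastrocnemius 4 other genes lay above Kmt2c and 0 above Kmt2d, and in quadriceps 0 above either. This is a description of members chosen for such a pattern.

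The other members were examined along their length in the same way, with tests. Of the bins of Kmt2a, Kmt2b and Kmt2e, each tested against the rest of its gene, 1 of 100 was called for HSA-LR over WT in gastrocnemius, where 0.819% of all bins were called, and 0 of 111 in quadriceps, where 0.284% were called. For treated over HSA-LR it was 0 of 100 (0.309% of all bins) and 0 of 111 (0.168%). For treated over WT it was 0 of 100 (0.0654%) and 0 of 111 (0.0353%). By edgeR's diffSpliceDGE, 3, 1 and 0 of these gastrocnemius bins and 0 of the quadriceps bins in each contrast had an unadjusted P under 0.05, in the same order of contrasts. A share of 1 in 100 is near the background.

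The called bin was Kmt2a bin 013, a coding bin of 2404 bases at chr9:44820116-44822519 (GRCm38, minus strand) in the middle part of the gene. It held 34, 49 and 20 counts in WT, 68, 80 and 101 in HSA-LR and 47, 69 and 20 in treated gastrocnemius. Its share was 1.51% ± 0.59, 3.69% ± 0.74 and 2.12% ± 0.66 (SD, n = 3), higher in all HSA-LR mice than in any WT or treated mouse. The log2 change relative to the gene was 1.31 for HSA-LR over WT (edgeR, adjusted P = 0.0043) and −0.76 for treated over HSA-LR (edgeR, adjusted P = 0.746). The first call was lost without WT mouse 3, 1 of the mice whose sex label goes against the data, and without HSA-LR mouse 3, with log2 changes of 1.02 and 1.13 (edgeR, adjusted P = 0.186 and 0.151). In quadriceps the bin had a log2 change of 0.16 (edgeR, adjusted P = 1.0).

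By part, the middle of Kmt2a had 1.62 ± 0.415 CPM in WT, 2.86 ± 0.409 in HSA-LR and 1.74 ± 0.704 in treated gastrocnemius, with no overlap between HSA-LR and WT (exact permutation test, 2-sided P = 0.1, as low as 3 against 3 mice can reach). In quadriceps it had 2.86 ± 2.07, 3.01 ± 1.89 and 4.72 ± 2.14 CPM, and the groups overlapped. In gastrocnemius the 5′ part of Kmt2a had 0.0948 ± 0.0268, 0.208 ± 0.0713 and 0.0941 ± 0.0263 CPM in WT, HSA-LR and treated mice. HSA-LR and WT mice did not overlap there (exact permutation test, 2-sided P = 0.1). This part was hardly read, with 8 to 16 counts in WT gastrocnemius and 8 to 165 in WT quadriceps, where mouse 2 had the 165. That mouse also had the highest WT level in the upstream parts of Kmt2c and Kmt2d. Kmt2b kept its parts within a ratio of 0.967 to 1.17 between HSA-LR and WT in both muscles. In gastrocnemius, CPM of HSA-LR and WT mice also did not overlap in the 5′ part of Kmt2b, at 1.17, or of Kmt2e. The exact permutation test gave a 2-sided P = 0.1 for each. Kmt2e had ratios of 1.36 and 1.40 in the 5′ part and 1.11 and 1.24 in the 3′ part, a difference in the same direction as in Kmt2c and Kmt2d but much smaller. The log2 FC of the 5′ part minus that of the 3′ part was 0.29 and 0.18 in Kmt2e. In Kmt2a it was 1.08 in gastrocnemius, on few 5′ counts, and 0.16 in quadriceps.

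**Figure D5:**
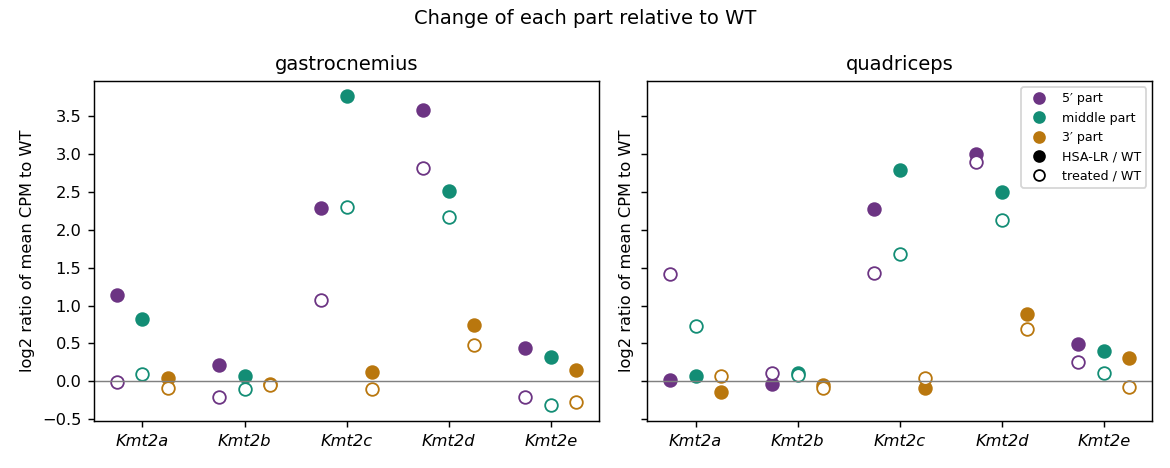
Log2 ratio to WT of mean CPM (y axis) for each KMT2 gene (x axis) in its 5′, middle and 3′ part (colors), for HSA-LR mice (filled) and treated mice (open), by muscle, with each symbol a ratio of means of 3 mice. The 5′ and middle parts of Kmt2c and Kmt2d stand far from 0 in HSA-LR mice, and Kmt2b and Kmt2e lie within 0.5 of 0. The 5′ part of Kmt2a, with few counts, stands at 1.14 in HSA-LR gastrocnemius and at 1.41 in treated quadriceps. In Kmt2d quadriceps the open and filled symbols of the 5′ part nearly coincide.

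Among bins of Kmt2b and Kmt2e, the bins named here were picked because their shares did not overlap between HSA-LR and WT mice, and none was called. Shares without overlap went both ways among bins with at least 50 counts on average. In gastrocnemius 4 rose and 3 fell of 40 bins in Kmt2b, and 7 rose and 5 fell of 39 in Kmt2e. In quadriceps 2 rose and 0 fell of 38, and 4 rose and 2 fell of 39. The share over all bins was not computed, so nothing is read from these counts. In gastrocnemius Kmt2b bins 047, 048 and 045 had share ratios of HSA-LR to WT of 1.33, 1.24 and 1.24, and in quadriceps bins 040 and 039 had 1.25 and 1.22. Kmt2e bins 023, 005 and 022 had 1.22, 1.20 and 1.19 in gastrocnemius, and bins 010 and 016 had 1.20 and 1.20 in quadriceps. Kmt2e bin 002, in the 5′ untranslated part, had 0.79. In Kmt2a gastrocnemius bins 012 and 002 had 1.48 and 1.22.

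The partners of the family were followed in a fixed list of 21 genes, of which Setd1a and Pagr1a were not analysed here. Of the 19 others, 1 rose and 1 fell for HSA-LR over WT in gastrocnemius and 1 rose in quadriceps, against 15.5% and 20.3% of all genes called. Ash2l is a core subunit of the complexes of Kmt2a, Kmt2b, Kmt2c and Kmt2d. It rose from 37.1 ± 2.19 to 57.1 ± 2.21 CPM in gastrocnemius and from 32.6 ± 1.55 to 50.9 ± 1.65 CPM in quadriceps (SD, n = 3). The log2 FC was 0.55 ± 0.08 and 0.52 ± 0.07 (SE; edgeR, adjusted P = 0.00274 and 0.00248). In treated mice it was 43.8 ± 3.78 and 37.3 ± 2.36 CPM, and treated over HSA-LR quadriceps it fell, with a log2 FC of −0.29 ± 0.07 (SE; edgeR, adjusted P = 0.0468). Men1, which encodes the menin bound by Kmt2a and Kmt2b, fell from 12.9 ± 0.243 to 11.1 ± 0.225 CPM in gastrocnemius, a log2 FC of −0.29 ± 0.08 (SE; edgeR, adjusted P = 0.0619), and treated over HSA-LR it rose with 0.30 ± 0.08 (SE; edgeR, adjusted P = 0.0762).

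Of the remaining partners none was called in HSA-LR over WT by edgeR. Kdm6a and Wdr5 are named after their values were seen. Kdm6a, the demethylase that works with Kmt2c and Kmt2d, had 16.8 CPM in WT and 15.1 CPM in HSA-LR gastrocnemius on average (log2 FC −0.23, edgeR, adjusted P = 0.4). Wdr5 had 32.6 and 33.8 CPM (log2 FC −0.02, edgeR, adjusted P = 0.909). The median log2 FC of the 19 genes was 0.07 in gastrocnemius and −0.03 in quadriceps, beside −0.01 and 0.01 over all genes tested. The sum of macrophage markers moved with the groups in the same libraries. The summed CPM of 6 such genes was 54.5 to 72.1 in WT, 72.9 to 83.4 in HSA-LR and 40.7 to 57.8 in treated gastrocnemius. In quadriceps it was 40.8 to 56.9, 87.1 to 115.5 and 36.6 to 57.5. Of the 6, 2 and 5 were called higher in HSA-LR over WT, against 8.6% and 11% of all genes tested. In gastrocnemius the called genes were Csf1r and Mrc1 (log2 FC 0.52 and 0.46). Adgre1, Cd68, Cd163 and Lyz2 had 0.17, −0.11, −0.03 and −0.04. None of the 6 was at 0 in all libraries. Satellite cell markers, summed over 4 genes, were at 27.1 to 28.9 CPM in WT, 30.7 to 37.0 in HSA-LR and 27.7 to 31.0 in treated quadriceps. There 2 of 4 were called higher in HSA-LR over WT (11% of all genes) and 1 of 4 in treated over WT (1.1%). In gastrocnemius they were at 30.5 to 31.4, 30.6 to 33.7 and 23.8 to 30.2 CPM. There 1 of 4 was called higher in HSA-LR over WT (8.6% of all genes). Endothelial markers, summed over 5 genes, were at 202.1 to 261 CPM in WT, 138.2 to 190.9 in HSA-LR and 140.3 to 233.6 in treated quadriceps. There 3 of 5 were called lower in HSA-LR over WT (9.31% of all genes), and 0 of 5 were called in gastrocnemius. Of 5 listed fibroblast markers, 3 were analysed here. Of these 3, 1 was called higher in HSA-LR over WT quadriceps (11% of all genes) and 0 in gastrocnemius (8.6%). Of 6 slow fiber markers, 4 were called higher in treated over HSA-LR quadriceps (6.54% of all genes) and 0 in gastrocnemius. Of the 6 muscle fiber markers, 1 was called higher in HSA-LR over WT gastrocnemius (8.6% of all genes). That was Myh1, with 4331 CPM in WT, 17741 in HSA-LR and 3069 in treated mice. In quadriceps 2 were called lower (9.31%). For treated over HSA-LR, 3 were called higher (4.49%) and 1 lower (5.53%) in gastrocnemius. In quadriceps 2 were called higher (6.54%). None of these markers was at 0 in all libraries. The part of such cells in the KMT2 levels was not tested.

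Genes whose log2 CPM ran most like the members over the 18 libraries were ranked by Pearson's r among 8365 genes with at least 5 CPM on average, as a description. The libraries share groups, so any gene with a large group difference will rank high. For Kmt2d they were Lrba (r = 0.965), Myo1a (0.962), Galnt7 (0.958), Cgref1 (0.929) and Nxn (0.929). Lrba had 7.32 CPM in WT, 51.4 in HSA-LR and 39.8 in treated gastrocnemius, and 6.28, 46.2 and 49.2 CPM in quadriceps. For Kmt2c they were Etl4 (0.929), Rnf139 (0.929) and Cpd (0.923). Etl4 had 57.0, 127.2 and 72.1 CPM in WT, HSA-LR and treated gastrocnemius.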

How the data were processed

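Poly(A)-selected RNA of 18 muscle samples was sequenced with a stranded kit. Per the labels, the submitters' processing notes name CASAVA, HISAT, featureCounts 1.5.0 and the GRCm38 mouse genome, and the deposited files hold counts of reads per exon bin, not normalized. The strand setting of the counting is not given in the sources used here. Rows without a gene (2.82% to 4.14% of counts) were left out, and depth was 98916844 to 143135976 counts. Symbols and coordinates came from GENCODE M21, and 41211 of 46725 genes had the same version and number of bins there. Kmt2d was listed under an earlier version with 64 bins, and its bins were rebuilt by leaving out the transcript Kmt2d-205, which is an inference from the bin counts.

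Groups came from the sample labels, 3 mice each, taken as separate animals. Bins were summed per gene. Genes were tested per muscle with edgeR 4.0.16 (R 4.3.3; TMM, filterByExpr with a minimum count of 10, quasi-likelihood test), and bins against their gene with diffSpliceDGE, with Benjamini-Hochberg adjustment over all genes or bins and an adjusted P threshold of 0.1. Simulated 3-fold changes were recovered in 100% of 200 genes and 87% of 200 bins. Replicate numbers do not pair mice within a muscle (median correlation −0.10 and 0.07). Both muscles came from the same mice (correlations 0.176 to 0.780 over 9 mice), by the animal numbers in the deposited files. The contrasts between muscles came from a single fit of all libraries without a mouse term, with the mouse as a block as an alternative. CPM were computed from library totals without TMM factors. Levels along genes, return indices and likeness are descriptions.

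All 5 members were named, with Kmt2c bin 034 and, per member and muscle, up to 3 bins with at least 50 mean counts, shares that did not overlap between HSA-LR and WT, and the largest ratio of shares, called bins of Kmt2a, Kmt2b and Kmt2e, called partners, and the genes most like Kmt2d (5) and Kmt2c (3). The members and lists were chosen with earlier results of these data known. Alternatives were other normalizations and filters, DESeq2 1.42.0, voom with diffSplice (limma 3.58.1), the largest bin of a gene, blocks, coverage as a covariate, 2 parts of a gene in place of 3, and each mouse left out. The return index alternatives, the levels along the gene without each WT mouse, and the comparison along the gene with other genes were chosen after seeing the data.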

Additional observations from a re-analysis of the deposited data

Results flagged for a closer look

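Kmt2a, treated over HSA-LR, had a mean log2 ratio of unscaled CPM of −0.249 in gastrocnemius and 0.323 in quadriceps, a difference of −0.5718. On this scale the median gene lay at −0.164 and −0.168. All 3 treated mice lay on opposite sides of the HSA-LR mean in the 2 muscles, and this difference was not tested. In the TMM-scaled fits the values were −0.07 ± 0.13 and 0.50 ± 0.19 (SE; edgeR, adjusted P = 0.788 and 0.138), so neither passed the threshold. The gastrocnemius value turned to 0.0478 without treated mouse 3 and to 0.0533 with the largest bin. Kmt2e, treated over WT, had −0.280 in gastrocnemius and 0.0838 in quadriceps, a difference of −0.3642, again with all 3 treated mice on opposite sides, and this difference was not tested. In the TMM-scaled fits it had −0.18 ± 0.15 and 0.12 ± 0.13 (SE; edgeR, adjusted P = 0.736 and 0.743), neither past the threshold.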

How the results depend on the processing

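With 3 mice per group, and few counts in the 5′ part of Kmt2a, small changes are beyond reach. Direction, side of the threshold or size held in 658 recomputed values of the comparisons, 42 moved and 18 changed sign. Of the values of single genes or bins 357 held, 20 changed sign, 7 passed the threshold and 2 lost it. Shares of all genes called were computed for the main fits only. Counts of called genes under the alternatives thus have no background beside them, and nothing is read from them. Counting each gene by its largest bin gave a log2 FC for HSA-LR over WT of −0.0777 (gastrocnemius) and −0.17 (quadriceps) in Kmt2c and 1.87 and 1.87 in Kmt2d, for treated over HSA-LR of 0.0587 and 0.205 in Kmt2c and −0.21 (quadriceps) in Kmt2d, and for treated over WT of −0.0190 and 0.0303 in Kmt2c and 1.735 and 1.66 in Kmt2d. Kmt2a then had −0.0583 for HSA-LR over WT, 0.0533 for treated over HSA-LR and −0.00502 for treated over WT in gastrocnemius, Kmt2e −0.15 for treated over WT in quadriceps, and the WT muscles 0.0216 (Kmt2a) and 0.0654 (Kmt2c). It called 1 of Kmt2a, Kmt2b and Kmt2e in quadriceps for HSA-LR over WT (Kmt2a −0.24, edgeR, adjusted P = 0.0790) and 1 for treated over HSA-LR (Kmt2a), and of the partners 1 (HSA-LR over WT) and 0 (treated over HSA-LR) in gastrocnemius and 2 (treated over HSA-LR) in quadriceps. The cause was not tested.

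Replicate numbers as a block, which pair nothing within a muscle, gave 1 call for treated over HSA-LR in gastrocnemius (Kmt2e −0.41, edgeR, adjusted P = 0.0936) and 1 in quadriceps (Kmt2a 0.50, edgeR, adjusted P = 0.0628), and the mouse as a block across muscles gave 0. DESeq2 called 1 member (Kmt2a) for treated over HSA-LR in quadriceps, and of the partners 3 (treated over HSA-LR) and 2 (treated over WT) in gastrocnemius, and 2 (HSA-LR over WT) and 2 (treated over HSA-LR) in quadriceps. Of the genes called in simulated data, 22.2% were false with DESeq2 and 10.3% with edgeR. Kmt2b, treated over WT gastrocnemius, was 0.00686 with DESeq2 size factors and 0.00697 with DESeq2. Cutting genes into 2 parts in place of 3 gave a difference along the gene of 0.0815 in Kmt2b, 3.43 in Kmt2c and 2.30 in Kmt2d in gastrocnemius, and 3.47 in Kmt2c in quadriceps. On unscaled CPM the return index was 45.5% (Kmt2c gene), 37.2% (Kmt2c 5′ part) and 3.6% (Kmt2d 5′ part) in quadriceps and 13.5% (Kmt2d middle part) in gastrocnemius.

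Leaving out each mouse in turn gave 0 to 1 calls among Kmt2a, Kmt2b and Kmt2e for HSA-LR over WT in quadriceps (Kmt2e without WT mouse 2) and for treated over HSA-LR in gastrocnemius (Kmt2e without treated mouse 2), and 0 to 1 called bins for HSA-LR over WT in gastrocnemius. In gastrocnemius the log2 FC ran from −0.0602 to 0.00764 for HSA-LR over WT in Kmt2b, from −0.195 to 0.0478 (Kmt2a) and −0.11 to 0.123 (Kmt2b) for treated over HSA-LR, and from −0.118 to 0.138 (Kmt2a) and −0.138 to 0.108 (Kmt2b) for treated over WT. In quadriceps Kmt2d ran from 1.53 to 1.60 for HSA-LR over WT, −0.22 to 0.0233 for treated over HSA-LR (above 0 without treated mouse 2) and 1.35 to 1.58 for treated over WT. Between WT muscles Kmt2c ran from −0.21 to 0.0975, and the muscle difference of Kmt2e from −0.0923 to 0.00525. The quadriceps difference along the gene ran from −1.115 to 2.67 in Kmt2a and from −0.138 to 0.195 in Kmt2b. In Kmt2a it was 0.157 with all mice and highest without WT mouse 2. It turned below 0 without WT mouse 1 (−0.257), WT mouse 3 (−0.411) or HSA-LR mouse 2 (−1.115). The return index in quadriceps ran from 25.4% to 38.6% (Kmt2c 5′ part), 25.8% to 41.6% (Kmt2c middle part), −1.44% to 13.6% (Kmt2d gene), −5.09% to 3.65% (Kmt2d 5′ part) and −8.02% to 23.8% (Kmt2d 3′ part), and in gastrocnemius from 28.4% to 39.8% (Kmt2c middle part), 2.76% to 10.9% (Kmt2d middle part) and −6.75% to 32.7% (Kmt2d 3′ part).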

Other observations

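Other genes with long CAG runs in their transcripts were listed after the values of Kmt2c and Kmt2d were seen, so the list has no test. Of 42 tested genes other than the members with a run of at least 9, 7 rose and 2 fell for HSA-LR over WT in gastrocnemius and 5 rose and 3 fell in quadriceps, against 15.5% and 20.3% of all genes called. Their median log2 FC was −0.02 and 0.03, beside −0.01 and 0.01 over all genes tested. Gab3, an adaptor protein with a run of 19, had a log2 FC of 1.64 ± 0.26 in gastrocnemius (SE; edgeR, adjusted P = 0.00467), and Sptbn5, a spectrin with a run of 26, had −0.84 ± 0.21 in quadriceps (SE; edgeR, adjusted P = 0.0325).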
